A study of Mus musculus with 32 samples.

Results

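The genes described here are those of the mouse major histocompatibility complex (MHC, called H2 in the mouse) and the genes that supply and load the peptides its molecules display. They were taken as every protein-coding gene of the deposited table whose symbol starts with H2- or is B2m, Tap1, Tap2, Tapbp, Psmb8, Psmb9, Psmb10, Cd74, Ciita or Nlrc5. The choice used names and biotype and no measured value. It gave 44 of 54532 listed genes, of which 22046 are protein-coding. By role they are 2 classical class I heavy chains (class Ia), 22 non-classical heavy chains (class Ib), the class I light chain B2m, 6 peptide supply genes, 4 class II chains, 6 class II chaperones and 2 transactivators. The remaining gene, H2-Ke6, carries an H2 symbol for its position and encodes a hydroxysteroid dehydrogenase. In mm10 coordinates, 39 of the 44 genes lie on chromosome 17 between 33915899 and 37483552, a span of 3.57 Mb. B2m is on chromosome 2, Ciita on chromosome 16, Psmb10 and Nlrc5 on chromosome 8 and Cd74 on chromosome 18.

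Class I molecules pair a heavy chain with beta-2-microglobulin (B2m) and show peptides from inside the cell to CD8 T cells, and nearly all nucleated cells make them. Their peptides are cut by the immunoproteasome (Psmb8, Psmb9, Psmb10), pumped into the endoplasmic reticulum by Tap1 and Tap2 and loaded with the help of tapasin (Tapbp). Class II molecules show peptides from ingested material to CD4 T cells and are made mainly by macrophages, dendritic cells and B cells. Nlrc5 drives transcription of class I genes and Ciita that of class II genes.

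The series compared tissues of wild-type C57Bl/6 mice, with the strain label C57/Bl6j, that were all fed a 60% HFD diet for 12 weeks and then dosed 3 times per week for 4 weeks. The dose was vehicle or auranofin, a gold-containing inhibitor of thioredoxin reductase, at 1 mg/kg body weight. Total RNA was sequenced from inguinal white fat (iWAT), epididymal white fat (eWAT), intrascapular brown fat (BAT) and liver, with 4 libraries in each of the 8 groups and 32 in all. The labels do not say whether the 4 libraries of a group came from separate animals, so each p-value measures the spread between libraries, and no lean or untreated group was analysed here.

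Rebuilt reads in genes ranged from 13606756 to 19205640 per library. Levels are given in FPKM as deposited, fragments scaled for gene length and a library size. Differences are on the log2(FPKM + 1) scale with their standard error (SE). The library size implied by the deposited values did not follow the reads in genes. It was 13267136 in liver vehicle 1, with 18109130 reads in genes, and 22889469 in iWAT auranofin 1, with 17414245. FPKM summed over all genes ranged from 241570.5 to 650120 between libraries, and the TPM scale makes these sums equal. A call is a Benjamini-Hochberg adjusted p under 0.05 over all genes tested with limma. Some libraries stood apart. The library labelled iWAT auranofin 2 correlated with the other libraries of its group at a mean r of 0.949 and with the iWAT vehicle libraries at 0.981, and its closest library was iWAT vehicle 2. A wrong label and a tissue that responded little cannot be told apart for it, so the iWAT auranofin calls are given with and without it. In eWAT, vehicle 2 had a mean r of 0.917 with its group, against 0.941 to 0.945 for the other vehicle libraries, and vehicle 3 and 4 correlated better with the auranofin libraries (0.966 and 0.967) than with their own group (0.943 and 0.945). BAT auranofin 2 correlated at 0.958 with its group and at 0.969 with BAT vehicle, and it held 2259 FPKM of skeletal muscle markers. Such markers also reached 908 FPKM in BAT auranofin 4 and 199 and 557 in BAT vehicle 3 and 4, against at most 44.2 in the other BAT libraries. They reached 1237 and 717 FPKM in iWAT vehicle 4 and iWAT auranofin 4, against at most 30.2 in the other iWAT libraries. Markers separated the tissues as labelled: brown adipocyte markers summed to 3734 to 5989.6 FPKM in vehicle BAT and at most 472 in other vehicle libraries, and the sum of 8 hepatocyte markers was 66245 to 90498 FPKM in vehicle liver and at most 598 in vehicle fat.

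The promoter sequences below are shown because genes with a Y box include class I genes and class II genes with different tissue orders, and because H2-Q10, the gene with the largest tissue difference among the 44, lacks both searched motifs. In class II and class I promoters the S-X-Y module binds RFX, CREB and NF-Y factors, on which Ciita and Nlrc5 dock. RefSeq promoters (GRCm38.p6) were found for 37 of the 44 genes. The searches used the Y box core GATTGG (bound by NF-Y) and the X2 core TGACG (bound by CREB and ATF factors), on both strands of the 130 bases before the start site. Capitals mark these cores in any orientation, and CCAATC is the Y box core read from the other strand. Each sequence runs 5′ to 3′ on the gene's own strand, and H2-Aa, whose gene is on the minus strand, is shown reverse complemented.
B2m, chr2:122147557-122147686, plus strand: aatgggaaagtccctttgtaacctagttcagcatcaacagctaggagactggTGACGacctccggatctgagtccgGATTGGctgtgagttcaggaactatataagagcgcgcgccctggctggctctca
H2-Q4, chr17:35379487-35379616, plus strand: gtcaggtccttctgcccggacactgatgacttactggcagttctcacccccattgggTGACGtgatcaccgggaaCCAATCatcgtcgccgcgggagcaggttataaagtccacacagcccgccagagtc
H2-Q10, chr17:35469959-35470088, plus strand: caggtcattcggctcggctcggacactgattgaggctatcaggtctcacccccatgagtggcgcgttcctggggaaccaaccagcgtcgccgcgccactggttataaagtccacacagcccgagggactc
H2-Aa, chr17:34287824-34287953, minus strand: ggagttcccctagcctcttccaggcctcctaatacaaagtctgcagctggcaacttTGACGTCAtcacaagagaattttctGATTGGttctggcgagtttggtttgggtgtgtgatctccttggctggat
H2-Eb1, chr17:34305737-34305866, plus strand: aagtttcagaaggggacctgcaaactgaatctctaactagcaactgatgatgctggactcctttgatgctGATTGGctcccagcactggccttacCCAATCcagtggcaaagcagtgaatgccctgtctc

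The Y box core starts 54 bases before the start site in B2m, 55 in H2-Q4, 49 in H2-Aa and 60 in H2-Eb1. In these windows it was present in 7 of 8 class II chain and chaperone genes, in 17 of 23 class I genes and in 1 of 5 peptide supply genes (Psmb9). Of 32851 RefSeq promoters, 10.1% held it. A gene counts if any of its promoters holds the core, while the background counts each promoter, so the units differ. The X2 core, a motif chosen after the data were seen, was present in 11 of 23 class I genes and in 1 of 8 class II genes (H2-Aa), against 12.2% of promoters. The interferon element (GAAA, any 2 bases, GAAA), searched on both strands of the 250 bases before the start, was found in B2m, H2-T22 and H2-T23, against 2.98% of promoters. The STAT site TTCNNNGAA, in the same window, was found in H2-DMb2, H2-M3, H2-M11 and Psmb8, against 7.02%. A match is a description of the letters, and the absence of a match in H2-Q10 says only that these letters are not in this window.

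Of the 44 genes, 29 reached a mean of 0.5 FPKM over the 16 vehicle libraries and were tested between tissues. H2-M10.2, H2-M10.3, H2-M10.4 and H2-M10.5 had no read in any library, in a family best known from the vomeronasal organ, and 11 genes in all stayed below 0.5 FPKM in every library. The other 7 of these were H2-M1, H2-M5, H2-M10.1, H2-M10.6, H2-M11, H2-Q2 and H2-T3. H2-Ke6 did not exceed 2.17 FPKM in any library, and 70.5% of its 50-base stretches also occur in the overlapping gene Gm20427. The 6 tissue contrasts share their vehicle libraries, so their counts are not independent of each other.

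Class II genes separated the tissues in the order eWAT, iWAT, BAT and liver. The 3 abundant chains are the alpha chain H2-Aa (chr17:34282744-34287827), the beta chain H2-Ab1 (chr17:34263209-34269418) and the beta chain H2-Eb1 (chr17:34305877-34316199). Summed over these chains, the vehicle level was 914 ± 78.6 FPKM in eWAT, 422 ± 71.3 in iWAT, 174 ± 44.8 in BAT and 72.6 ± 22.0 in liver (SD, n = 4). The groups of neighbouring tissues did not overlap in H2-Aa, H2-Ab1, H2-Eb1 or Cd74. In bulk tissue, fewer cells that make a transcript and less of it in each cell cannot be told apart.

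H2-Aa was 357, 303, 290.2 and 266 FPKM in the 4 vehicle libraries of eWAT and 148, 136, 104 and 104 in iWAT. In BAT it was 48.4, 70.8, 39.5 and 46.1 FPKM, and in liver 14.0, 26.3, 25.4 and 15. Every eWAT library was above every iWAT library, every iWAT library above every BAT library and every BAT library above every liver library. The eWAT level exceeded that of iWAT by 1.31 (SE 0.22, adjusted p = 0.000227) and that of liver by 3.89 (SE 0.22, adjusted p = 1.71e-10), a ratio of means of 15.

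H2-Ab1 was 282, 274, 280.2 and 265 FPKM in eWAT and 161, 159.8, 119 and 112 in iWAT. It was 48.6, 66.0, 43.7 and 39.0 FPKM in BAT and 16.3, 31.0, 31.8 and 21.6 in liver. Its eWAT libraries lay close together, and the 4 tissues formed the same order with no overlap. The difference between eWAT and iWAT was 1.01 (SE 0.20, adjusted p = 0.00098), and that between BAT and liver was 0.97 (SE 0.20, adjusted p = 0.000644).

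H2-Eb1 was 344, 238, 402 and 357 FPKM in eWAT, 181, 184, 137 and 146 in iWAT, 66.3, 104, 64.8 and 60.2 in BAT and 18.8, 35.9, 32.1 and 22.3 in liver. In eWAT the second library was the low one, yet it lay above all iWAT libraries. The difference between eWAT and iWAT was 1.03 (SE 0.22, adjusted p = 0.00162). H2-Eb2, a related beta chain, did not exceed 1.52 FPKM in any library.

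Cd74, the invariant chain that escorts new class II molecules to the endosome, was 796, 739.7, 737 and 675 FPKM in eWAT and 465, 422, 296 and 305 in iWAT. It was 114, 192, 118 and 113 FPKM in BAT and 43.9, 79.3, 93.8 and 61.4 in liver. The tissues again did not overlap. The difference between eWAT and iWAT was 1.01 (SE 0.23, adjusted p = 0.00232), and Cd74 stood at a mean of 0.769 to 0.960 times the summed class II chains in vehicle libraries of each tissue.

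H2-DMa and H2-DMb1 form H2-M, which exchanges the invariant chain remnant for peptide. H2-DMa was 23.1, 12.4, 23.7 and 23.2 FPKM in eWAT, 11.7, 14.2, 10.5 and 11.8 in iWAT, 2.97, 4.93, 3.88 and 2.69 in BAT and 1.56, 2.56, 3.42 and 1.95 in liver. The second eWAT library fell within the iWAT range, and BAT overlapped liver. The difference between eWAT and iWAT was 0.69 (SE 0.21, adjusted p = 0.0155), and BAT minus liver was 0.46 (SE 0.21, adjusted p = 0.0744). H2-DMb1 averaged 41.4 ± 9.70 FPKM in eWAT, 34.5 ± 10.5 in iWAT, 5.19 ± 1.3 in BAT and 2.21 ± 0.690 in liver (SD, n = 4). Both white depots were far above BAT and liver, with eWAT minus BAT at 2.76 (SE 0.23, adjusted p = 1.02e-07), eWAT minus liver at 3.72 (SE 0.23, adjusted p = 7.33e-10), BAT minus iWAT at -2.49 (SE 0.23, adjusted p = 4.57e-07) and liver minus iWAT at -3.45 (SE 0.23, adjusted p = 1.9e-09). The difference between the white depots was 0.27 (SE 0.23, adjusted p = 0.372). H2-DMb1 shares 22.7% of its 50-base stretches with other genes, so part of its reads could be split with its neighbour H2-DMb2.

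H2-Oa and H2-Ob form H2-O, an inhibitor of H2-M best known from B cells, and H2-DMb2 is a second beta chain of H2-M. All 3 were low. Their summed level in iWAT vehicle was 10.4 FPKM in the first library and 0.612 at the lowest, and in eWAT it ranged from 2.82 to 8.53. One library therefore carried most of the iWAT signal. H2-DMb2 and H2-Ob were not called between eWAT and iWAT, and H2-Oa was below the level tested. H2-DMb2 and H2-Ob were called higher in eWAT than in liver, by 1.19 (SE 0.40, adjusted p = 0.0138) and 0.80 (SE 0.31, adjusted p = 0.0278).

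**Figure D1:**
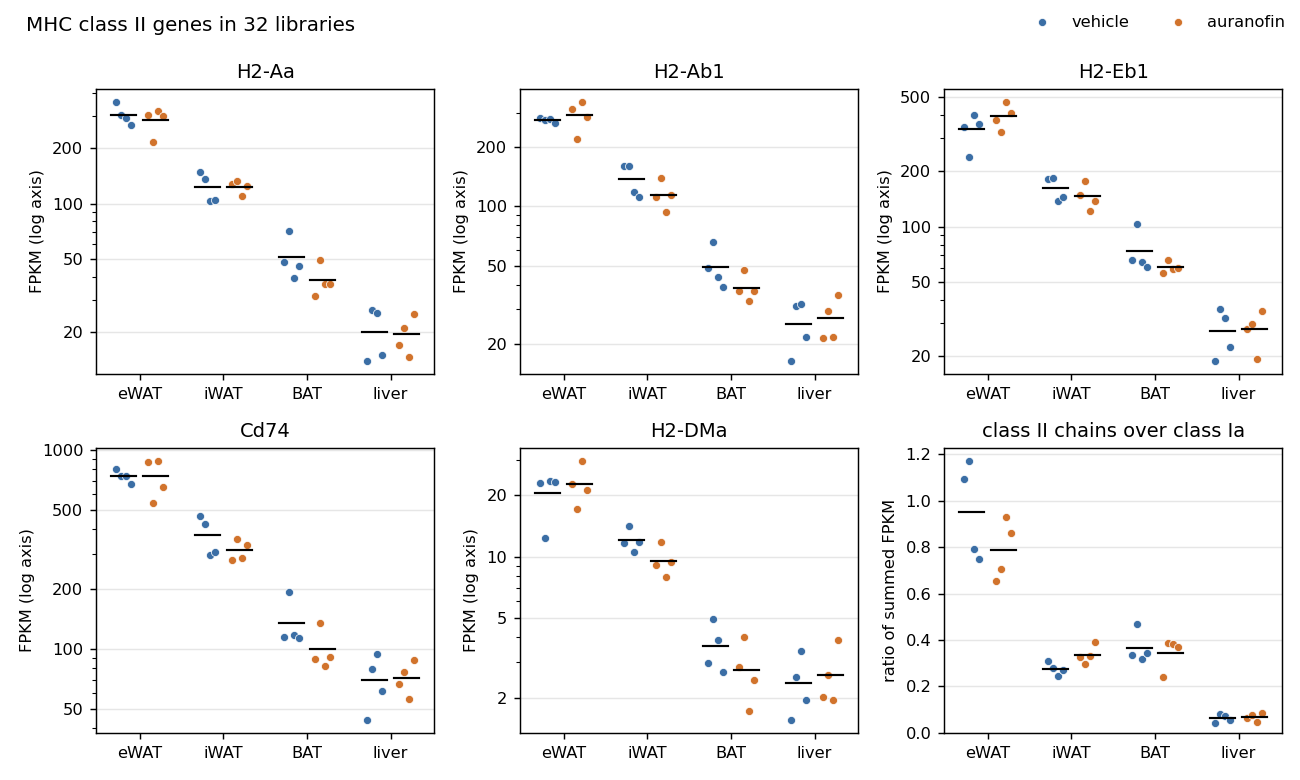
FPKM on log axes of H2-Aa, H2-Ab1, H2-Eb1, Cd74 and H2-DMa, and on a linear axis the ratio of summed class II chains to summed class Ia chains, in each tissue; points are single libraries (vehicle and auranofin in separate colours) and bars are means of 4. Vehicle levels step down from eWAT through iWAT and BAT to liver, and the ratio averages 0.952 in eWAT vehicle against 0.0624 in liver vehicle.

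Counted over the class II chains and chaperones, 8 of 10 were tested between tissues. Against iWAT, 5 were higher and 0 lower in eWAT (median difference 0.85), 0 higher and 6 lower in BAT (median -1.37), and 0 higher and 6 lower in liver (median -2.43). In eWAT 7 were higher and 0 lower than in BAT (median 2.35), and 8 were higher and 0 lower than in liver (median 3.44). BAT had 5 higher and 0 lower than liver (median 0.95). Over all genes tested, limma called 46.2% between eWAT and iWAT (21.4% higher and 24.8% lower), 50.1% between BAT and iWAT (24.4% and 25.7%) and 69.5% between liver and iWAT (35.8% and 33.7%). It called 53% between eWAT and BAT (27.8% and 25.3%), 71.9% between eWAT and liver (34.5% and 37.4%) and 63.1% between BAT and liver (31.8% and 31.4%). The medians over all genes tested lay between -0.04 and 0.01. These shares are large, so a called gene is common here, and it is the single direction within each contrast that describes the called class II genes. For BAT minus liver, 1 of the 8 tested lay below 0, at -0.13, and was not called.

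Markers of cells that make class II were not level between the tissues. The summed FPKM of 12 macrophage markers was 1922 to 4247 in eWAT vehicle, 468 to 715 in iWAT, 208 to 399.6 in BAT and 141 to 224 in liver. For 10 dendritic cell markers the ranges were 90.4 to 145, 44.1 to 55.6, 15.5 to 19.9 and 4.65 to 5.32. The 12 B cell markers followed another order, with 297 to 875 in eWAT and 625 to 815 in iWAT against 32.5 to 56.7 in BAT and 9.29 to 13.2 in liver. No marker of these 3 lists was at 0 throughout a vehicle group. Limma called 11 of 12 macrophage markers higher in eWAT than in iWAT and 0 lower, and 3 of 7 tested dendritic cell markers higher and 0 lower. The part of cell number in the class II differences was not tested.

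Ciita, the class II transactivator, was 2.36, 1.24, 2.28 and 2.01 FPKM in eWAT, 0.738, 0.545, 0.523 and 0.372 in iWAT, 0.283, 0.371, 0.161 and 0.321 in BAT and 0.0870, 0.284, 0.0853 and 0.259 in liver. The eWAT libraries lay above all others, while BAT overlapped liver. The difference between eWAT and iWAT was 0.93 (SE 0.13, adjusted p = 4.11e-05) and that between eWAT and liver 1.32 (SE 0.13, adjusted p = 1.28e-07). The pseudocount of 1 understates differences at these levels.

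Classical class I genes and B2m followed a different order, with iWAT or liver high and BAT low. H2-D1 (chr17:35262730-35267499) was 942, 977, 854 and 784 FPKM in iWAT, 509, 366, 656 and 632 in eWAT, 296, 302, 262 and 247 in BAT and 331, 326, 347 and 291 in liver. All iWAT libraries lay above all eWAT libraries, and BAT and liver overlapped at the low end. H2-D1 was lower in eWAT than in iWAT by a difference of -0.75 (SE 0.16, adjusted p = 0.00173), a call that ended on the TPM scale at -0.31 (median of all genes 0.32) and after quantile normalisation at -0.29. BAT minus liver was -0.23 (SE 0.16, adjusted p = 0.242).

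H2-K1 (chr17:33996017-34000333) was 636, 739, 606 and 553 FPKM in iWAT, 391, 329, 572 and 550.4 in eWAT, 188, 212, 204 and 175 in BAT and 791, 848, 912 and 769 in liver. Here liver was the high tissue and BAT the low one, with no overlap with any other tissue. BAT was below liver by -2.09 (SE 0.17, adjusted p = 1.45e-08) and below iWAT by -1.69 (SE 0.17, adjusted p = 6.97e-07). Liver exceeded iWAT by 0.39 (SE 0.17, adjusted p = 0.0453), and the value was -0.37 on the TPM scale, where the median of all genes was -0.62, and -0.53 after quantile normalisation, where that median was -0.11. H2-K1 thus stayed above the median of all genes on the TPM scale and lay below it after quantile normalisation.

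B2m (chr2:122147686-122153083), the light chain shared by class Ia, class Ib and several MHC-like molecules, was the most abundant of the 44 genes in every tissue. It was 4694, 4965, 4047 and 3277 FPKM in iWAT, 2324, 3732, 2235 and 2253 in eWAT, 776, 1026, 899 and 1008 in BAT and 2621, 2689, 2464 and 3042 in liver. BAT lay below every other tissue, and the second eWAT library lay within the iWAT range. B2m in BAT was lower than in iWAT by -2.18 (SE 0.19, adjusted p = 1.71e-07) and lower than in liver by -1.55 (SE 0.19, adjusted p = 2.28e-06). The difference between eWAT and liver was -0.07 (SE 0.19, adjusted p = 0.757) as deposited, and 1.14 on the TPM scale, where the median of all genes was 0.98.

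The low BAT level of H2-K1 and B2m was called against each other tissue with limma as deposited, on the TPM scale, after quantile normalisation and with voom on rebuilt reads. The order among iWAT, eWAT and liver depended on scaling. The TPM scale moved the median of all genes to 0.98 for eWAT minus liver, -0.62 for liver minus iWAT and 0.32 for eWAT minus iWAT. It moved that median to 0.69 for eWAT minus BAT, -0.32 for BAT minus iWAT and 0.32 for BAT minus liver. Relative to these shifts, the median of H2-K1, H2-D1 and B2m was 0.15 for eWAT minus liver and -0.79 for liver minus iWAT. The class II order kept its direction under all 4 scalings, with a median of 0.85 to 1.32 for eWAT minus iWAT.

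Ratios within a library do not change where each library is scaled by 1 factor, as on the TPM scale. Quantile normalisation can change them. H2-K1 over H2-D1 was 2.39 to 2.65 in vehicle liver, 0.769 to 0.90 in eWAT, 0.675 to 0.756 in iWAT and 0.635 to 0.778 in BAT. The auranofin libraries gave 2.42 to 2.71 in liver and 0.645 to 0.838 in fat. Liver therefore carried more H2-K1 than H2-D1 in each of its 8 libraries, and each of the 24 fat libraries carried less. H2-D1 shares 12.8% and H2-K1 9.6% of their 50-base stretches with other genes, so their levels are uncertain by the reads that could be split. The ratio of summed class II chains to class Ia was 0.751 to 1.17 in vehicle eWAT, 0.318 to 0.467 in BAT, 0.246 to 0.310 in iWAT and 0.0437 to 0.0794 in liver. By this measure vehicle BAT lay above vehicle iWAT, although both classes were lower in BAT. With auranofin the 2 tissues overlapped, at 0.239 to 0.388 in BAT and 0.296 to 0.393 in iWAT.

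**Figure D2:**
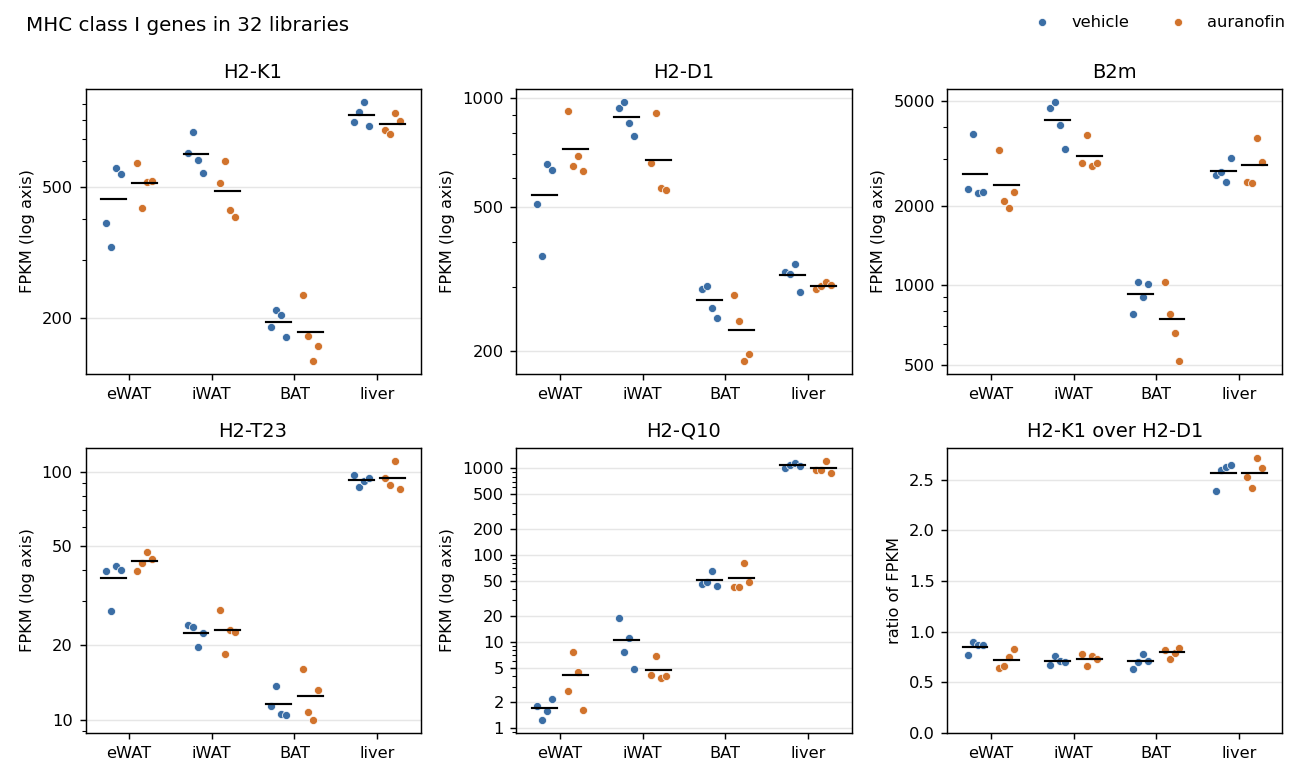
FPKM on log axes of H2-K1, H2-D1, B2m, H2-T23 and H2-Q10, and on a linear axis the ratio of H2-K1 to H2-D1, in each tissue; points are single libraries and bars are means of 4. H2-K1, H2-T23 and H2-Q10 are highest in liver, B2m and H2-K1 are lowest in BAT, and the H2-K1 to H2-D1 ratio is 2.39 or more in liver libraries and 0.90 or less in fat libraries.

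Non-classical class Ib genes moved in both directions. Of the 10 tested, 3 were higher and 4 lower in eWAT than in iWAT, 2 higher and 6 lower in BAT than in iWAT, and 4 higher and 3 lower in liver than in iWAT. Over all genes, the shares higher and lower were 21.4% and 24.8%, 24.4% and 25.7%, and 35.8% and 33.7%, in the same order. The liver counts lay near these shares. H2-Q10 (chr17:35470089-35474563) encodes a soluble class Ib heavy chain known as a product of hepatocytes. It was 1008, 1101, 1146 and 1060.4 FPKM in liver, 46.0, 48.2, 66.1 and 43.4 in BAT, 18.6, 7.64, 11.1 and 4.89 in iWAT and 1.80, 1.25, 1.59 and 2.19 in eWAT. No 2 tissues overlapped. The difference was -8.65 for eWAT minus liver (SE 0.26, adjusted p = 6.82e-14), and 2.29 for BAT minus iWAT (SE 0.26, adjusted p = 3.81e-06). H2-Q10 made up a mean of 83.2% of the class Ib FPKM in vehicle liver, 35.2% in BAT, 5.48% in iWAT and 1.10% in eWAT. It shares 19.0% of its 50-base stretches with other genes, chiefly H2-Q7, which stayed at 9.66 FPKM or less in vehicle BAT.

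Transcripts of hepatocyte marker genes were also present at lower level in fat libraries, and their values stand beside H2-Q10. The 8 hepatocyte markers summed to 2.06 to 5.45 FPKM in vehicle BAT, with Tat at 0 in its 4 libraries and Alb at 0 to 0.809. In vehicle iWAT they summed to 146 to 598 FPKM, and in vehicle eWAT to 87.4 to 200.7. Among the fat depots, vehicle BAT had the lowest marker sums and the most H2-Q10. In order of library, the iWAT vehicle marker sums were 598, 146, 244 and 429 FPKM beside H2-Q10 at 18.6, 7.64, 11.1 and 4.89, so the largest sum went with the most H2-Q10 and the second largest with the least. The eWAT vehicle sums were 88.6, 87.4, 200.7 and 173 FPKM beside 1.80, 1.25, 1.59 and 2.19, and the eWAT auranofin sums 105, 929, 280.03 and 179 beside 2.73, 7.51, 4.43 and 1.62. The sums did not weigh the 8 markers evenly, and some rested on few of them. The mean of log2(FPKM + 1) over the 8 was 1.82 to 4.967 in vehicle iWAT and 1.468 to 2.517 in vehicle eWAT. It was 1.565 to 5.75 in eWAT with auranofin. The part of liver RNA in the H2-Q10 level and in the marker sums of BAT, iWAT and eWAT was not tested.

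**Figure D3:**
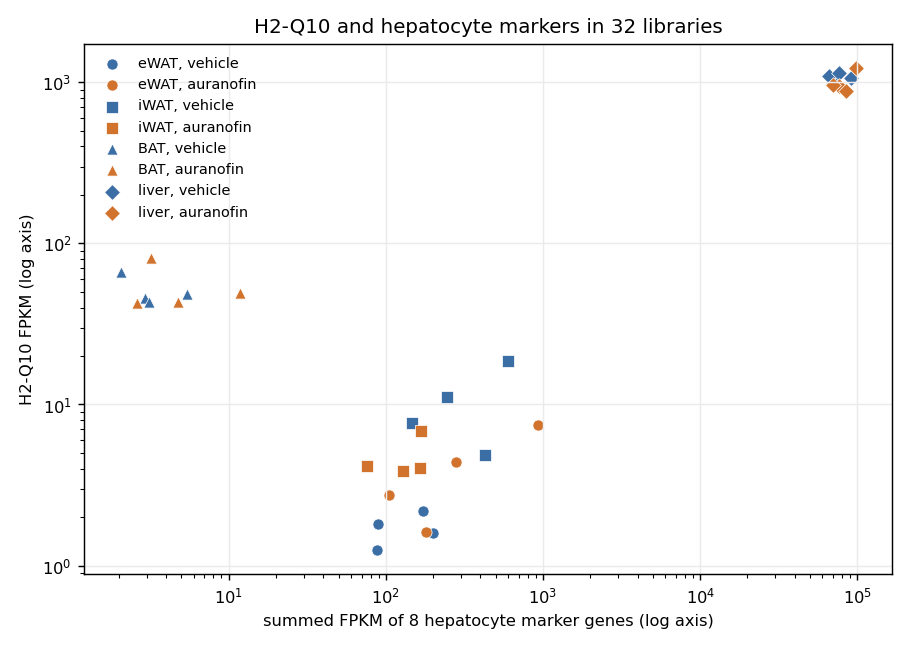
H2-Q10 FPKM against the summed FPKM of 8 hepatocyte markers, both on log axes, one point for each of the 32 libraries with the marker shape for tissue and the colour for treatment. BAT libraries have 42.8 to 81.2 FPKM of H2-Q10 at a marker sum of 2.06 to 11.7, while iWAT and eWAT have less H2-Q10 at larger sums.

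H2-T23, which encodes Qa-1, a ligand of the NK cell receptor CD94/NKG2A, was 96.7, 86.4, 91.5 and 94.5 FPKM in liver and 39.6, 27.5, 41.5 and 40.0 in eWAT. It was 24.0, 23.6, 19.7 and 22.5 FPKM in iWAT and 11.4, 13.7, 10.6 and 10.5 in BAT. No tissue overlapped another. The difference was 2.0 for liver minus iWAT (SE 0.13, adjusted p = 7.99e-10), -1.31 for eWAT minus liver (SE 0.13, adjusted p = 1.43e-07) and -2.90 for BAT minus liver (SE 0.13, adjusted p = 6.83e-12). The eWAT and liver difference was -0.12 and no longer called on the TPM scale, where the median of all genes was 0.98.

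H2-Q1 was 3.37, 15.7, 5.04 and 4.51 FPKM in liver, and no fat library exceeded 0.0525. It differed by 2.80 for liver minus iWAT (SE 0.28, adjusted p = 2.03e-07), -2.76 for eWAT minus liver (SE 0.28, adjusted p = 2.23e-07) and -2.80 for BAT minus liver (SE 0.28, adjusted p = 2.22e-07). H2-M9 showed the reverse of a liver pattern, with 0 in all 8 liver libraries, 0.831 to 2.41 FPKM in vehicle BAT, 0.662 to 1.89 in iWAT and 0.0289 to 0.300 in eWAT. It differed by -0.85 for eWAT minus iWAT (SE 0.19, adjusted p = 0.00206), by -1.16 for eWAT minus BAT (SE 0.19, adjusted p = 8.94e-05) and by 1.37 for BAT minus liver (SE 0.19, adjusted p = 1.02e-05).

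H2-T22, a ligand of some gamma-delta T cells, averaged 48.5 ± 2.90 FPKM in iWAT, 40.4 ± 2.50 in liver, 28.1 ± 5.35 in eWAT and 20.8 ± 1.94 in BAT (SD, n = 4). It was lower in eWAT than in iWAT by -0.78 (SE 0.12, adjusted p = 0.000108). H2-T24 averaged 3.16 ± 0.510 FPKM in BAT and 1.86 ± 0.431 in iWAT (SD, n = 4), with BAT minus iWAT at 0.54 (SE 0.17, adjusted p = 0.0137), and was one of the 2 genes of the 29 called higher in BAT than in iWAT, with H2-Q10. H2-T22 shares 34.5% of its 50-base stretches with other genes, chiefly H2-T10, and H2-Q6, H2-Q7 and H2-Q4 share 32%, 26.4% and 21.8%, so levels in this family are uncertain. H2-M3, which presents formylated bacterial peptides, averaged 9.87 ± 2.70 FPKM in eWAT, 6.15 ± 1.47 in iWAT, 4.02 ± 1.08 in BAT and 2.33 ± 0.411 in liver (SD, n = 4), an order of tissue means like that of class II.

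On the deposited scale the mean summed level of the peptide supply genes was lowest in BAT, while the means of Tapbp and Tap2 were lower in liver. The vehicle libraries of BAT (62.7 to 82.5 FPKM) and liver (81.3 to 102) overlapped. FPKM summed over all genes was 440511 to 469941 in vehicle BAT and 573272 to 622403 in vehicle liver, so the BAT and liver order of these sums depends on scaling. In BAT the 6 genes summed to 76.9 ± 9.51 FPKM, in liver to 90.5 ± 8.61, in eWAT to 126 ± 34.7 and in iWAT to 149.5 ± 15.1 (SD, n = 4). All 6 were lower in BAT than in iWAT, with a median difference of -0.98. Between eWAT and iWAT 0 were higher and 1 (Psmb10) was lower, between liver and iWAT 1 was higher and 2 were lower, and between BAT and liver 0 were higher and 4 lower, a count that became 2 higher and 2 lower on the TPM scale. Of all genes, 25.7% were lower in BAT than in iWAT. The shares higher and lower were 21.4% and 24.8%, 35.8% and 33.7%, and 31.8% and 31.4% in the other contrasts, in that order.

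Tap1, a subunit of the peptide transporter, was 8.27, 8.59, 8.05 and 8.73 FPKM in liver, 6.27, 3.29, 8.58 and 7.28 in eWAT, 5.14, 5.70, 4.87 and 6.43 in iWAT and 3.52, 3.40, 3.46 and 3.32 in BAT. Liver lay above iWAT and BAT, and the eWAT libraries overlapped those of every other tissue. BAT minus liver was -1.09 (SE 0.18, adjusted p = 5.41e-05). Liver minus iWAT was 0.53 (SE 0.18, adjusted p = 0.0141) and was -0.15 on the TPM scale, where the median of all genes was -0.62.

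Psmb8, the immunoproteasome subunit LMP7, was 6.55, 7.87, 6.63 and 3.74 FPKM in BAT, 11.4, 9.97, 12.3 and 7.39 in liver, 11, 6.73, 18.0 and 15.3 in eWAT, and 15.9, 13.4, 9.77 and 15.4 in iWAT. Only BAT and iWAT did not overlap. BAT minus iWAT was -1.04 (SE 0.26, adjusted p = 0.0039). Nlrc5, the class I transactivator, was 4.54, 4.85, 4.94 and 4.36 FPKM in liver, 3.29, 4.09, 3.75 and 3.43 in iWAT, 3.32, 2.93, 4.12 and 3.47 in eWAT and 2.6, 2.90, 2.70 and 2.49 in BAT. Like H2-K1, it was high in liver and low in BAT, with BAT minus liver at -0.63 (SE 0.09, adjusted p = 1.3e-05). Its liver minus iWAT difference of 0.29 (SE 0.09, adjusted p = 0.00833) was -0.36 on the TPM scale, again against -0.62 for all genes.

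**Figure D4:**
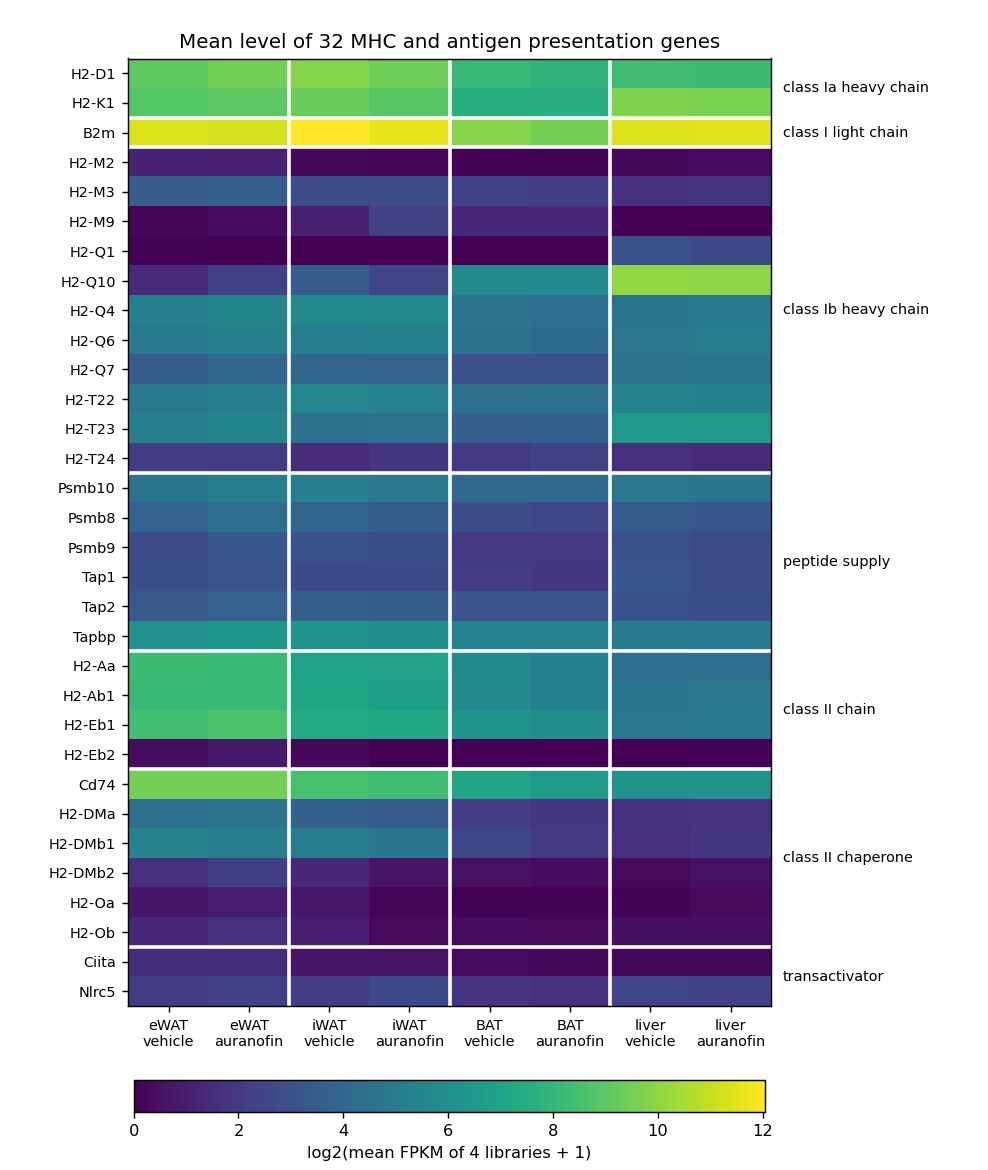
Colour map of log2(mean FPKM + 1) for the 32 MHC and antigen presentation genes with a mean of 0.5 FPKM or more in at least 1 group, by role (rows) and by the 8 groups of tissue and treatment (columns). B2m is at the top of the scale everywhere, class II chains and Cd74 are strongest in eWAT, and H2-Q10 stands out in liver.

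The wider pathways were described through 6 lists of partner genes. Their counts between tissues stand beside the 46.2% to 71.9% of all genes called in these contrasts. In class II trafficking and proteolysis (11 of 12 listed genes in the table), 8 were higher and 0 lower in eWAT than in iWAT. The 8 were Ctss, Lgmn, Ctsh, Ifi30, Cd83, Ap1m1, Sppl2a and Ctsb. Ctss encodes cathepsin S, which degrades the invariant chain, and differed by 3.46. The list had 1 higher and 5 lower in BAT than in iWAT (Ap1m1 against Ctsl, Ctsh, Ctsb, Ifi30 and Ctsd) and 3 higher and 7 lower in liver than in iWAT (Ctsh, Sppl2a and Ap1m1 against Cst3, Ctsb, Ctsd, Cd83, Ctss, Ctsl and Lgmn). In eWAT 7 were higher than in BAT (Ctsl, Ctsh, Ctss, Lgmn, Ifi30, Cd83 and Ctsb) and 1 lower (Ap1m1). In eWAT 8 were higher than in liver (Ctsb, Ctss, Cd83, Lgmn, Cst3, Ifi30, Ctsd and Ctsl) and 2 lower (Ctsh and Sppl2a). BAT had 5 higher than liver (Cst3, Ctsb, Ctsd, Cd83 and Ap1m1) and 4 lower (Ctsh, Ctsl, Sppl2a and Ifi30). The directions were thus mixed in liver, where Ctsh exceeded iWAT by 2.78.

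Among 12 genes of class I folding and trimming, 7 were higher in liver than in iWAT (Calr, Canx, Erap1, Pdia3, Tapbpl, Hspa5 and Ide) and 2 lower (Lnpep and Psme2). Calreticulin (Calr), a chaperone of the loading complex, differed by 1.54. In eWAT 3 were higher than in iWAT (Canx, Pdia3 and Calr) and 3 lower (Psme1, Psme2 and Psme3, the proteasome activator subunits). BAT had 2 higher than iWAT (Ide and Tapbpl) and 4 lower (Psme1, Psme2, Calr and Pdia3). In eWAT 4 were higher than in BAT (Calr, Pdia3, Erap1 and Hspa5) and 3 lower (Ide, Psme3 and Tapbpl). In eWAT 1 was higher than in liver (Lnpep) and 8 lower (Calr, Tapbpl, Psme1, Ide, Erap1, Canx, Hspa5 and Pdia3). BAT had 1 higher than liver (Lnpep) and 7 lower (Calr, Pdia3, Erap1, Psme1, Canx, Hspa5 and Tapbpl).

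The 11 genes listed for the enhanceosome, among them the RFX, CREB and NF-Y factors that bind the S-X-Y module, were also compared. In eWAT 6 were higher than in iWAT (Nfya, Rfx5, Ep300, Atf1, Creb1 and Crebbp) and 1 lower (Rfxank). BAT had 8 higher than iWAT (Nfyc, Crebbp, Ep300, Atf1, Nfya, Rfxank, Rfx5 and Kat2b) and 1 lower (Nfyb), and liver 8 higher and 0 lower (Nfyb, Kat2b, Rfx5, Nfyc, Rfxank, Crebbp, Ep300 and Atf1). In eWAT 2 were higher than in BAT (Nfya and Rfx5) and 4 lower (Nfyc, Rfxank, Kat2b and Crebbp). In eWAT 2 were higher than in liver (Nfya and Creb1) and 5 lower (Nfyb, Kat2b, Rfxank, Nfyc and Rfx5). BAT had 3 higher than liver (Nfyc, Nfya and Creb1) and 4 lower (Nfyb, Kat2b, Rfx5 and Rfxap). The largest of these differences was -1.55, for Nfyb in BAT minus liver.

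Of 12 interferon-gamma signalling genes 10 were tested, and Ifng itself stayed at 0.238 FPKM or less in every library. In eWAT 5 were higher than in iWAT (Irf2, Irf9, Ifngr2, Irf1 and Irf8) and 0 lower. BAT had 4 higher than iWAT (Irf1, Socs3, Irf2 and Jak2) and 3 lower (Ifngr1, Irf8 and Ifngr2), and liver 4 higher (Irf2, Irf9, Socs3 and Irf1) and 5 lower (Ifngr1, Irf8, Ifngr2, Jak2 and Jak1). In eWAT 5 were higher than in BAT (Irf8, Ifngr2, Ifngr1, Jak1 and Irf9) and 0 lower. In eWAT 5 were higher than in liver (Ifngr1, Irf8, Ifngr2, Jak2 and Jak1) and 2 lower (Irf2 and Irf9), and BAT had 2 higher than liver (Ifngr1 and Jak2) and 2 lower (Irf2 and Irf9). The receptor chain Ifngr1 differed by -3.36 for liver minus iWAT.

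MHC-like molecules encoded elsewhere (8 of 9 tested) had no common direction. In eWAT 3 were higher than in iWAT (Ulbp1, Procr and Raet1d) and 3 lower (Hfe, Cd1d1 and Fcgrt), BAT had 0 higher and 4 lower than iWAT (Hfe, Cd1d1, Mr1 and Procr), and liver 2 higher (Azgp1 and Raet1d) and 4 lower (Hfe, Procr, Mr1 and Ulbp1). In eWAT 5 were higher than in BAT (Hfe, Procr, Ulbp1, Mr1 and Raet1d) and 0 lower. In eWAT 4 were higher than in liver (Procr, Ulbp1, Hfe and Mr1) and 4 lower (Azgp1, Raet1d, Cd1d1 and Fcgrt), and BAT had 3 higher than liver (Procr, Mr1 and Ulbp1) and 5 lower (Azgp1, Raet1d, Cd1d1, Hfe and Fcgrt). Azgp1, a soluble class I-like protein, differed by 9.25 for liver minus iWAT, and Hfe, a regulator of iron uptake, by -2.38 for BAT minus iWAT.

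Of 12 co-stimulatory and checkpoint genes 8 were tested. In eWAT 5 were higher than in iWAT (Havcr2, Cd48, Icam1, Cd80 and Cd86) and 0 lower. In eWAT 6 were higher than in BAT (Cd48, Havcr2, Icosl, Cd80, Cd86 and Cd40) and 1 lower (Cd274), and 8 were higher than in liver (Icosl, Cd48, Cd274, Havcr2, Cd80, Cd86, Cd40 and Icam1) and 0 lower. BAT had 1 higher than iWAT (Icam1) and 2 lower (Icosl and Cd48), liver 0 higher and 5 lower than iWAT (Icosl, Cd274, Cd48, Cd40 and Cd86), and BAT 3 higher and 0 lower than liver (Cd274, Icosl and Icam1). Cd48 differed by 2.28 between eWAT and iWAT, and Cd274, which encodes the checkpoint ligand PD-L1, by -2.67 between liver and iWAT.

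Auranofin was compared with vehicle within each tissue. None of the 44 genes passed the threshold in any tissue, with 28 tested in iWAT, 30 in eWAT, 26 in BAT and 25 in liver, and 24 in all 4. Over all genes tested, limma called 0% in iWAT, 0% in eWAT, 0.023% in BAT and 0% in liver. The voom fit on rebuilt reads also called 0 of these genes in each tissue. At an unadjusted limma p under 0.05, iWAT had 2 higher and 2 lower, eWAT 2 higher and 0 lower, BAT 1 higher and 3 lower, and liver 2 higher and 1 lower. Over all genes, 22% passed that unadjusted limit in iWAT (9.17% higher and 12.8% lower), 11.4% in eWAT (5.32% and 6.13%), 11.2% in BAT (4.66% and 6.5%) and 6.04% in liver (2.5% and 3.54%).

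In iWAT, the class Ia genes and B2m had the lower means under auranofin. B2m was 2916, 3722, 2831 and 2908 FPKM with auranofin, against 3277 to 4965 with vehicle, and differed by -0.45 (SE 0.22, adjusted p = 0.255). H2-D1 was 662, 912, 563 and 556 FPKM with auranofin, against 784 to 977, and differed by -0.43 (SE 0.20, adjusted p = 0.241). H2-K1 was 517, 602, 426 and 408 FPKM against 553 to 739, and differed by -0.38 (SE 0.18, adjusted p = 0.241). In each of the 3 genes the second auranofin library was the high one and reached into the vehicle range, while the other 3 auranofin libraries lay below every vehicle library. On the TPM scale the median of the 3 was -0.14, where all genes stood at a median of 0.23, and after quantile normalisation it was 0.05. In iWAT no gene of the 28 had groups that did not overlap, against 5.18% of all genes (2.77% higher and 2.41% lower).

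Nlrc5 moved the other way in iWAT, at 6.11, 3.92, 5.73 and 5.23 FPKM with auranofin against 3.29 to 4.09 with vehicle. The second auranofin library was again the one inside the vehicle range. The difference was 0.42 (SE 0.13, adjusted p = 0.204). H2-M9 was 3.88, 0.662, 7.75 and 4.03 FPKM against 0.662 to 1.89, a difference of 1.07 (SE 0.44, adjusted p = 0.212), and H2-Q10 was 4.15, 6.89, 3.85 and 4.06 FPKM against 4.89 to 18.6, a difference of -0.90 (SE 0.34, adjusted p = 0.204). H2-Aa, H2-Ab1, H2-Eb1, Cd74, H2-DMa, Ciita, Psmb8 and Tap1 differed by 0.02, -0.26, -0.14, -0.23, -0.31, 0.03, -0.34 and -0.04.

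Without the library labelled iWAT auranofin 2, 12 of the 28 genes were called in iWAT, 3 higher and 9 lower, where 36.4% of all genes were called, 15.1% higher and 21.3% lower. Nlrc5 was higher by 0.53 (SE 0.09, adjusted p = 0.00385), H2-T24 by 0.58 (SE 0.12, adjusted p = 0.00816) and H2-M9 by 1.53 (SE 0.26, adjusted p = 0.00354). H2-D1 differed by -0.58 (SE 0.12, adjusted p = 0.00705), H2-K1 by -0.49 (SE 0.13, adjusted p = 0.0220), B2m by -0.54 (SE 0.15, adjusted p = 0.0276) and Psmb10 by -0.70 (SE 0.19, adjusted p = 0.0211). The other 5 lower genes were H2-T22, H2-Q10, Tapbp, H2-DMa and H2-DMb1. A library left out because of its position among all libraries changes the comparison, and the 3 remaining auranofin libraries carry these calls. The calls were made on the deposited scale only. FPKM summed over all genes was 340536 to 369437 in vehicle iWAT, 368676 in auranofin 2 and 259520 to 275614 in the other auranofin libraries. The part of this scaling in the calls was not tested. Several marker sums separated the same libraries. B cell markers summed to 625 to 815 FPKM in vehicle iWAT, to 719.7 in auranofin 2 and to 319.7 to 376 in the other auranofin libraries. White adipocyte markers summed to 7243 to 9464, 9151 and 5334 to 6081 FPKM in the same order, and brown adipocyte markers to 33.4 to 48.95, 44.5 and 10.7 to 22.9. Endothelial markers were the higher ones in the 3 auranofin libraries, with 199.7 to 239, 177 and 258 to 316 FPKM. The B cell sum rested on few markers, as 3 of 12 reached a mean of 0.5 FPKM with auranofin. The mean of log2(FPKM + 1) over the 12 was 1.05 to 1.065 in all auranofin libraries and 1.064 to 2.838 with vehicle. By that measure auranofin 2 did not stand apart. The part of these marker genes in the values of the 12 called genes was not tested.

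In eWAT, the 6 peptide supply genes were the group with the highest median under auranofin, at 0.53, and all 6 estimates were above 0 with none called. Psmb9 was 9.45, 9.19, 9.57 and 7.96 FPKM with auranofin and 5.69, 3.00, 8.08 and 6.87 with vehicle, and Psmb8 was 20.7, 17.2, 20.2 and 16.8 against 11, 6.73, 18.0 and 15.3. Vehicle libraries 1 and 2 were low in both genes, and vehicle 3 and 4 were close to or within the auranofin range. Psmb8 differed by 0.59 (SE 0.26, adjusted p = 0.429) and Psmb9 by 0.60 (SE 0.24, adjusted p = 0.429). The median of the 6 genes was 0.30 without vehicle 2 and 0.13 without vehicle 1 and 2, when 5 of the 6 were above 0. White adipocyte markers summed to 1452 to 3943 FPKM in eWAT vehicle and to 4167 to 9736 with auranofin, and their part in these values was not tested. In eWAT 0 of 30 genes had groups that did not overlap, against 6.95% of all genes (3% higher and 3.95% lower).

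The classical class I genes and class II chains overlapped between treatments in eWAT. H2-K1 was 593, 432, 520.1 and 524 FPKM with auranofin and differed by 0.20 (SE 0.25, adjusted p = 0.692), and H2-D1 was 919, 651, 694 and 629 FPKM and differed by 0.44 (SE 0.26, adjusted p = 0.447). B2m was 3246, 2087, 1968 and 2265 FPKM and differed by -0.13 (SE 0.30, adjusted p = 0.827). Class II chains summed to 970.3 ± 153 FPKM with auranofin and 914 ± 78.6 with vehicle (SD, n = 4), while the macrophage marker sum was 1108 to 2459 against 1922 to 4247. H2-Aa, H2-Ab1, H2-Eb1, Cd74 and H2-DMa differed by -0.11, 0.06, 0.25, -0.03 and 0.16, and Ciita, Nlrc5 and Tap1 by -0.02, 0.14 and 0.33. H2-Q10 differed by 0.78 (SE 0.32, adjusted p = 0.429) and was one of the 2 genes with an unadjusted p under 0.05. The 95% interval of the H2-Aa difference ran from -0.57 to 0.36, so differences within this range remained compatible with these libraries.

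In BAT, the 6 class II genes tested all had estimates below 0, with a median of -0.36 and none called. H2-DMb1 was 2.59, 3.73, 3.09 and 3.00 FPKM with auranofin and 4.54, 6.93, 5.37 and 3.92 with vehicle. The groups did not overlap, and the difference was -0.58 (SE 0.15, adjusted p = 0.254). Tap1, at 3.30, 2.49, 2.39 and 3.05 FPKM with auranofin, and Nlrc5, at 2.30, 2.33, 1.91 and 1.92, also lay wholly below vehicle, with differences of -0.22 (SE 0.09, adjusted p = 0.434) and -0.24 (SE 0.08, adjusted p = 0.359). These 3 of 26 genes were all lower, and compare with 5.33% of all genes whose groups did not overlap (2.28% higher and 3.05% lower).

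Class II chains in BAT overlapped between treatments. H2-Aa was 31.4, 49.2, 36.7 and 36.4 FPKM with auranofin and differed by -0.39 (SE 0.19, adjusted p = 0.488), and Cd74 was 89.0, 135, 82.2 and 91.0 FPKM and differed by -0.42 (SE 0.21, adjusted p = 0.495). The second library was the highest in both treatment groups. H2-Ab1, H2-Eb1, H2-DMa, H2-K1, H2-D1, B2m, Psmb8 and H2-Q10 differed by -0.33, -0.26, -0.30, -0.12, -0.30, -0.35, -0.26 and 0.05. Macrophage markers in BAT summed to 208 to 399.6 FPKM with vehicle and 116 to 237 with auranofin, with 11 of 12 estimates below 0, a median of -0.61 and none called. Their part in the class II values was not tested. Without BAT auranofin 2, the library with the most muscle marker FPKM, H2-Aa differed by -0.51 (adjusted p = 0.209) and H2-Ab1 by -0.43 (adjusted p = 0.246). BAT auranofin 4 and BAT vehicle 3 and 4, with muscle marker sums of 908, 199 and 557 FPKM, stayed in that fit. Ciita was 0.212 ± 0.0670 FPKM with auranofin and 0.284 ± 0.0895 with vehicle (SD, n = 4), below the level tested.

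In liver, Tap1 was 6.12, 5.76, 7.44 and 5.79 FPKM with auranofin and 8.27, 8.59, 8.05 and 8.73 with vehicle. The groups did not overlap, in 1 of 25 genes against 3.72% of all genes (1.52% higher and 2.2% lower), and the difference was -0.38 (SE 0.09, adjusted p = 0.789). The other peptide supply genes differed by -0.25 to 0.03. H2-K1, H2-D1 and B2m differed by -0.09, -0.09 and 0.06, H2-Q10 by -0.11 and Nlrc5 by -0.04. H2-Aa, H2-Ab1, H2-Eb1, Cd74 and H2-DMa differed by -0.02, 0.11, 0.05, 0.08 and 0.10, and Psmb8 by -0.20. Every adjusted p in this comparison was 0.789 or more. Ciita stayed at a mean of 0.206 FPKM with auranofin and 0.179 with vehicle.

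**Figure D5:**
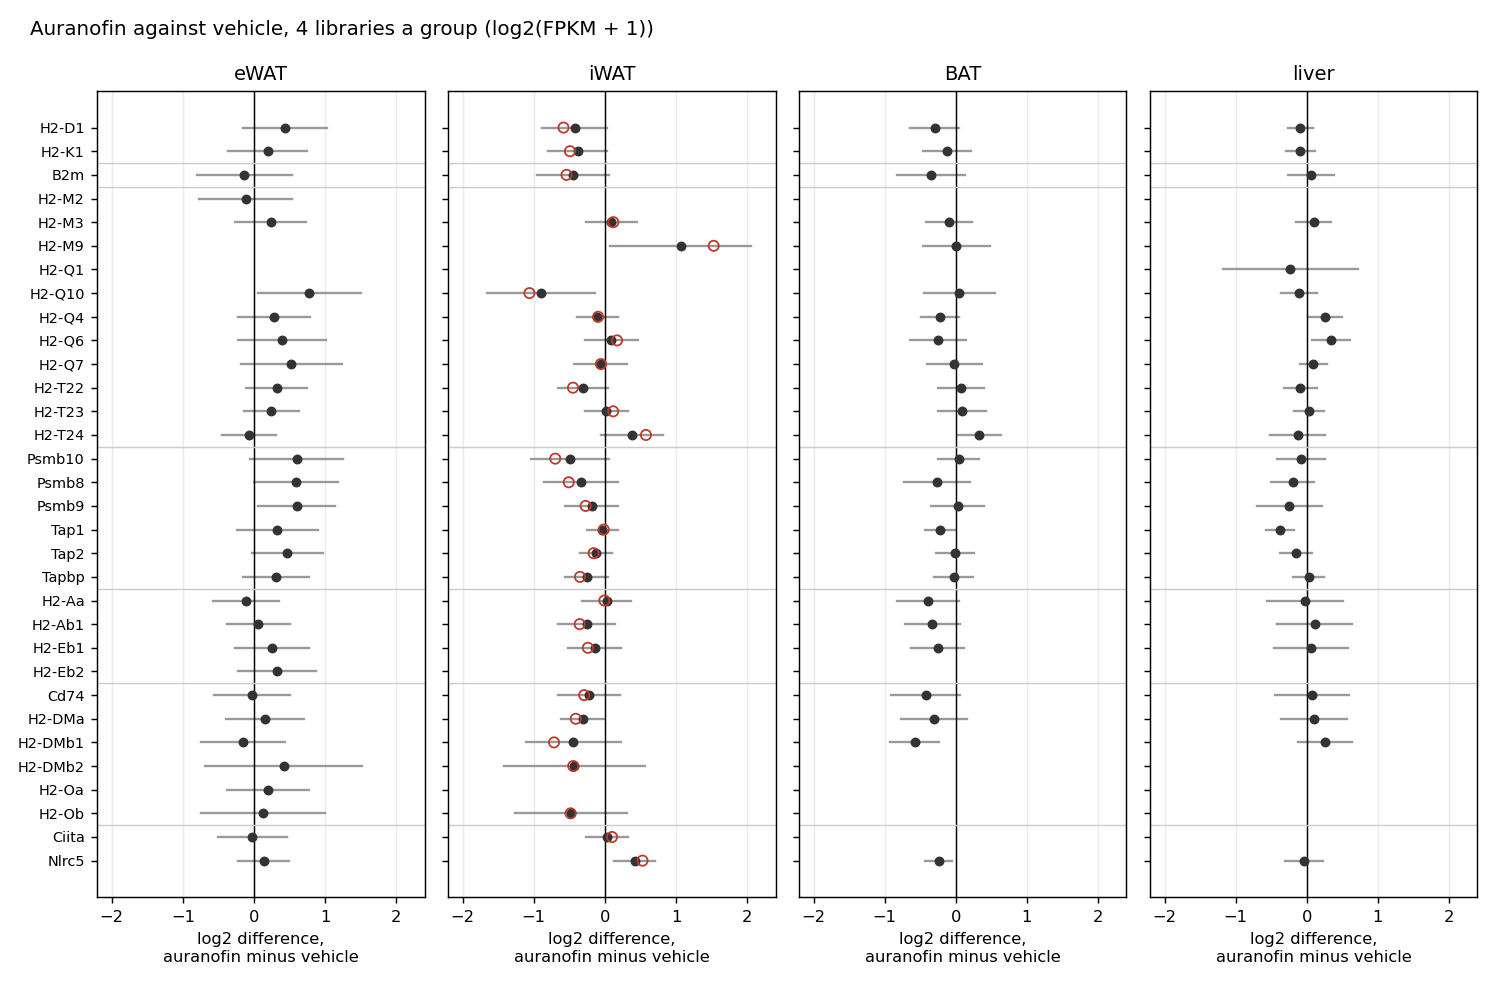
Log2 difference between auranofin and vehicle (points) with its 95% interval (lines) for 32 genes by role, in each tissue, on the log2(FPKM + 1) scale from limma with 4 libraries a group; open red circles in the iWAT panel are the values without the library labelled auranofin 2. No point was called, peptide supply genes lie above 0 in eWAT, and class II genes lie below 0 in BAT.

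Partner genes gave 0 calls in each of the 6 lists and 4 tissues under auranofin. The smallest p-values in iWAT belonged to Psme1 and Psme2 (class I folding and trimming), Ctsb and Ctsd (class II trafficking), Nfya and Crebbp (enhanceosome), Ptpn2 and Irf1 (interferon-gamma signalling), Hfe and Procr (MHC-like) and Icam1 and Cd274 (co-stimulation). In eWAT they were Tapbpl and Hspa5, Lgmn and Ctsl, Nfya and Atf1, Ifngr2 and Ifngr1, Ulbp1 and Fcgrt, and Havcr2 and Cd48, in the same order of lists. In BAT they were Hspa5 and Canx, Ctss and Lgmn, Rfxank and Nfyc, Jak2 and Irf2, Mr1 and Cd1d1, and Icam1 and Cd48. In liver they were Tapbpl and Ide, Ctss and Ctsd, Nfyb and Rfxap, Irf9 and Ifngr1, Hfe and Fcgrt, and Icam1 and Cd48. Ctss in BAT was 33.1 ± 8.65 FPKM with vehicle and 14.5 ± 5.41 with auranofin (SD, n = 4), a difference of -1.17 (SE 0.26, adjusted p = 0.22).

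Interaction terms compared the auranofin differences of the tissues directly. None of the 44 genes was called for eWAT against iWAT, eWAT against BAT, iWAT against BAT or liver against the average of all fat depots, and limma called 0%, 0%, 0.0224% and 0% of all genes. At an unadjusted limma p under 0.05 these comparisons had 8 higher and 0 lower, 2 higher and 0 lower, 1 higher and 1 lower, and 1 higher and 1 lower, of 30, 30, 27 and 29 tested. The shares of all genes at that unadjusted limit were 13.3% higher and 10.3% lower, 3.32% and 2.52%, 9.76% and 13.4%, and 3.01% and 3.03%. Voom on rebuilt reads called 0 of the 44 genes in each. Without the library labelled iWAT auranofin 2, 5 genes were called for eWAT against iWAT, where 14.8% of all genes were called: H2-D1, H2-Q10, H2-T22 and Psmb10 higher and H2-M9 lower. For iWAT against BAT 4 were called, where 27.4% of all genes were: Nlrc5 at 0.77 (SE 0.12, adjusted p = 0.000953) and H2-M9 higher, H2-T22 and Psmb10 lower.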

How the data were processed

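RNA from 4 tissues and both treatments was sequenced from libraries made with a non-stranded kit, per the labels' protocols, so reads of overlapping antisense genes cannot be told apart. The build was mm10, and the tools listed were featureCounts 1.5.0-p3, DESeq2 1.20.0, STAR 2.6.1d and CASAVA, per the submitters' processing notes. FPKM values of 54532 genes in 32 libraries were deposited by the authors. How reads matching several genes were counted is not given in the sources used here.

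Whole reads were rebuilt from the FPKM steps (100.0% of values whole within 0.1 read, checked up to 1000 reads) and gave 13606756 to 19205640 reads in genes per library. Differences were tested with limma 3.58.1 (R 4.3.3, intensity trend) on log2(FPKM + 1), over genes with a mean of 0.5 FPKM or more in the libraries of the fit. Auranofin was compared with vehicle within each tissue, tissues were compared in 1 fit of the 16 vehicle libraries, and interactions compared auranofin differences between tissues. Benjamini-Hochberg adjustment ran over all genes tested, at 0.05. The fitting code was tested on simulated data. Alternatives changed the pseudocount, filter, scaling, weights, trend, tool and libraries. Shared sequence is the share of a gene's 50-base stretches found in another gene. Python 3.11.15, pandas 2.3.3 and matplotlib 3.10.9 were used.

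The genes and lists were chosen with earlier results of these data known. H2-K1, H2-D1, B2m, Tap1, Psmb8, Nlrc5, H2-Aa, H2-Ab1, H2-Eb1, Cd74, Ciita, H2-DMa and H2-Q10 were named in every tissue. Others were named under auranofin where they passed or their groups did not overlap at a mean of 1 FPKM or more, and between tissues where they were among the 3 largest differences per direction past the threshold. At most 5 genes past the threshold were named per interaction. Partner lists were given by counts with the genes past the threshold, or the 2 smallest p-values where none passed. One gene of the interferon-gamma list is not reported here and was left out of its counts. Psmb9, H2-DMb2, H2-Ob, H2-T24, H2-M3 and Psmb10 were named after their values were seen.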

Additional observations from a re-analysis of the deposited data

Results flagged for a closer look

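In 16 of 167 groups of 4 libraries, 1 library stood far from the other 3, where chance gives about 1 in 20 groups. Several of these values belong to a few libraries. The library labelled iWAT auranofin 2 was the highest of its group for B2m (3722 FPKM), H2-DMb1 (43.4 FPKM) and H2-Q10 (6.89 FPKM) and the lowest for H2-T24 (1.48 FPKM). In eWAT, vehicle 2 was the highest for B2m (3732 FPKM) and the lowest for H2-DMa (12.4 FPKM), H2-DMb1 (26.9 FPKM) and H2-T23 (27.5 FPKM). In BAT, vehicle 2 was the highest for H2-Eb1 (104 FPKM), Cd74 (192 FPKM) and H2-T22 (23.6 FPKM), and it also had the largest macrophage marker sum of its group, 399.6 FPKM.

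The remaining values came from other libraries. BAT auranofin 2 was the highest for Cd74 (135 FPKM) and the lowest for H2-T24 (3.13 FPKM), and BAT auranofin 3 was the highest for H2-Q10 (81.2 FPKM). BAT auranofin 1 had the lowest ratio of class II chains to class Ia, 0.239. In liver, vehicle 2 was the highest for H2-Q1, at 15.7 FPKM.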

How the results depend on the processing

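Of 83 called tissue results of named genes, 66 kept their direction and call under every alternative run, and of their 2151 values 2071 did so, 66 lost the call and 14 changed sign. Signs changed with scaling or with the auranofin libraries in place of vehicle. The values below also include results that were not called as deposited. These are B2m for eWAT minus liver, and Nlrc5 and Psmb8 for eWAT minus iWAT. On the TPM scale, Nlrc5 was 0.33 for eWAT minus iWAT, -0.36 for liver minus iWAT and 0.70 for eWAT minus liver. H2-K1 was -0.37 for liver minus iWAT and 0.32 for eWAT minus liver, B2m 1.14 for eWAT minus liver, and Tap1 -0.15 for liver minus iWAT and 0.69 for eWAT minus liver. After quantile normalisation, H2-K1 was 0.0276 for eWAT minus iWAT, -0.53 for liver minus iWAT and 0.55 for eWAT minus liver, and B2m was 0.30 for eWAT minus iWAT and 1.98 for eWAT minus liver. In the auranofin libraries, eWAT minus iWAT was 0.0917 for H2-K1, 0.12 for H2-D1 and 0.79 for Psmb8, Nlrc5 was -0.17 for liver minus iWAT and Tap1 0.29 for eWAT minus liver. The TPM scale moved the median of all genes to 0.32 for eWAT minus iWAT, -0.62 for liver minus iWAT and 0.98 for eWAT minus liver, and quantile normalisation to -0.05, -0.11 and 0.06. For the quantile values and the auranofin libraries the cause was not tested.

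For auranofin in iWAT, 15 genes were called with sample quality weights (46.3% of all genes) and 2 with 1 fit of all libraries (5.48%), and in eWAT 1 (Tap2) with that fit (9.24%). Leaving out 1 library gave 0 to 12 calls in iWAT. The interaction of eWAT with iWAT gave 12 calls with weights (29.9% of all genes) and 0 to 5 with 1 library left out, and that of iWAT with BAT 5 (33%) and 0 to 4. Without iWAT auranofin 2 the counts were 12, 5 and 4 (36.4%, 14.8% and 27.4% of all genes), and without BAT auranofin 2 the last was 1 (2.49%). The H2-K1 call between eWAT and iWAT ended without eWAT vehicle 2 (-0.34).

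Replicate numbers did not pair the libraries: in 0 of 16 pairs of groups did every same-numbered correlation exceed 0.1 (range -0.343 to 0.387). With the replicate block, 0 genes were called in each auranofin and interaction comparison, and 17, 23, 20, 22, 21 and 19 in the tissue contrasts, against 17, 24, 21, 22, 22 and 20 without it.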

Other observations

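Other loci with an H2 symbol are annotated as pseudogenes or polymorphic pseudogenes and were not among the 44 genes. H2-K2 was highest in liver, at 23.7 ± 1.27 FPKM with vehicle, against 7.75 ± 2.30 in eWAT, 6.28 ± 0.563 in BAT and 2.79 ± 1.01 in iWAT (SD, n = 4), a pattern across tissues with liver high and iWAT low. H2-Q5 was 3.77 ± 0.696 FPKM with vehicle and 8.34 ± 3.72 with auranofin in iWAT (SD, n = 4). H2-Ea-ps, the remnant of the alpha chain partner of H2-Eb1, had 2 reads in all 32 libraries together, both in eWAT vehicle, while H2-Eb1 was abundant in every tissue. Mice of the H2-b haplotype, to which C57BL/6 belongs, are known to lack a functional Ea chain. H2-Bl had a mean of 0.517 FPKM in vehicle liver and no read in vehicle fat. H2-Pa, H2-Pb and H2-M10.5-ps1 had 0 reads in every library. Because these loci share sequence with expressed class I genes, their reads may in part belong to those genes, which was not tested.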
